A study of Mus musculus with 2 samples.

Results

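Cytochrome P450 enzymes, UDP-glucuronosyltransferases and sulfotransferases were followed across every cell type of a control and an injured mouse kidney. Members were all genes of the deposited expression table whose symbol starts with Cyp, Ugt or Sult followed by a digit, without Cyp4a10 and Cyp4a14. The rule took no measured value into account and gave 59 of the table's 15169 genes, namely 43 Cyp, 10 Ugt and 6 Sult genes. P450 enzymes are haem proteins that oxidise drugs, fatty acids, sterols and vitamin D with electrons passed on by partner proteins. The transferases then attach a sugar acid or a sulfate group, which makes a compound easier to excrete. In the kidney most of this chemistry is placed in the proximal tubule, whose named segments S1, S2 and S3 follow each other from the glomerulus toward the medulla.

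The study set single cells of a normal kidney beside those of an injured one. The injury was ischaemia-reperfusion (IRI): the blood supply of 1 kidney is cut off for a time and then returned, and here the opposite kidney was taken out. Both groups were kidneys of C57BL/6 wild-type mice 9 weeks old, the control is called normal, and no time after the operation is given. The labels name no nephrectomy in the control, so the effect of ischaemia and that of nephrectomy cannot be told apart. There was 1 library per group, with 6589 control cells (24169073 raw UMIs, median 2344 per cell) and 5170 IRI cells (16816996 raw UMIs, median 1888.5), so no test was possible and every comparison describes these libraries. The libraries shared 55 cell barcodes. The deposited annotation gave 18 cell types in 29 clusters. Y-linked genes such as Ddx3y were above 0 in both libraries (mean 0.064 and 0.0432 in proximal tubule cells), and the labels give no sex.

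Values are mean depth-corrected counts per cell. They are not raw counts and not per gene length, so they are set side by side between cell types rather than between genes. A difference is the log2 ratio of IRI over control after adding 0.05 to each mean, a member was measured where its values summed to at least 10 in the cells compared, and 2-fold is the limit for counting it. Over all cells 50 members reached that sum, and in proximal tubule cells 45 did (31 Cyp, 9 Ugt and 5 Sult genes). For scale, T cells, B cells and neutrophils, which should lack most of these enzymes, carried a summed member level of 1.03 (control) and 0.603 (IRI). This is the level that RNA free in the suspension may give, and it was higher in the control. The pool was small and its mix differed, with 59 T cells, 27 B cells and 2 neutrophils in the control and 97, 69 and 106 in IRI. IRI neutrophils also carried Cyp4f18, as given below.

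Most of the members' signal came from a few genes and a single kind of cell. Sult1d1, a sulfotransferase for catecholamines, gave 17.7% of all member counts, and Cyp4b1, an oxidase of fatty acids and foreign compounds, gave 16.3%. Cyp2e1 (10.9%), which oxidises ethanol and other small molecules, Cyp2j5 (8.44%), an epoxygenase of arachidonic acid, Ugt2b38 (8.26%) and Ugt3a2 (6.46%) brought the share to 68.1%. Proximal tubule types held 71.4% of all cells, and 22 of the 50 members had over 90% of their signal there. Another 11 members had under 50% of it there. Of these, Sult2b1 was highest in IRI tDL cells (0.0364), and the others were highest in vessels, myofibroblasts, intercalated cells or macrophages.

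In the control kidney the summed level of these enzymes was highest in S3 and lowest in S2. The summed member level was 4.55 counts per cell in S1, 3.33 in S2 and 12.4 in S3, where it made up 0.572% of the corrected total. All 13 members with a mean of at least 0.1 in proximal tubule cells were highest in S3. That limit was set on the pooled segments. With 1442 S3 and 600 S1 cells in the control, it favours members high in S3 over S1. Cyp2d26, Cyp2d12 and Sult1c2, below the limit, were highest in S1. Their S1 and S3 means were 0.24 and 0.0354, 0.218 and 0.0874, and 0.105 and 0.0472. Cyp7b1, Ugt8a and Cyp2a5, also below it, were highest in S3. Cyp4b1 had 0.648 in S1, 0.456 in S2 and 2.83 in S3. Cyp2e1 had 0.273, 0.283 and 1.76 in the same order. Ugt3a2, a transferase of the small UGT3 family that uses other sugars than glucuronic acid, had 0.258, 0.13 and 1.16. Segments differed little for Sult1d1, at 0.877, 0.986 and 1.02. Median raw UMIs per control cell were 4953.5 in S1, 1495 in S2 and 4507.5 in S3, so S2 was lowest in depth as well, and the part of depth was not tested.

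In the IRI kidney S3 stood less far above S1. The summed level was 5.10 in S1, 2.28 in S2 and 6.28 in S3, or 0.295% of the corrected total in S3. S3 exceeded S1 by a log2 ratio of 2.48 (control) and 0.24 (IRI) for Cyp2e1, by 2.54 and 0.40 for Cyp2a4, and by 2.04 and 0.53 for Cyp4b1. For Ugt3a2 these ratios were 1.98 and 0.27, and for Cyp4a31, an enzyme of the fatty acid hydroxylase family CYP4A, 1.99 and 0.14. Sult1d1 was the exception, with 0.21 and 0.27. In the IRI library 12 of the 13 members were highest in S3, and Cyp2a4 was highest in S2. Median raw UMIs in S1 and S3 were 4953.5 and 4507.5 in the control but 4716 and 2338.5 in the IRI library. The part of depth in the smaller gap was not tested.

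**Figure D1:**
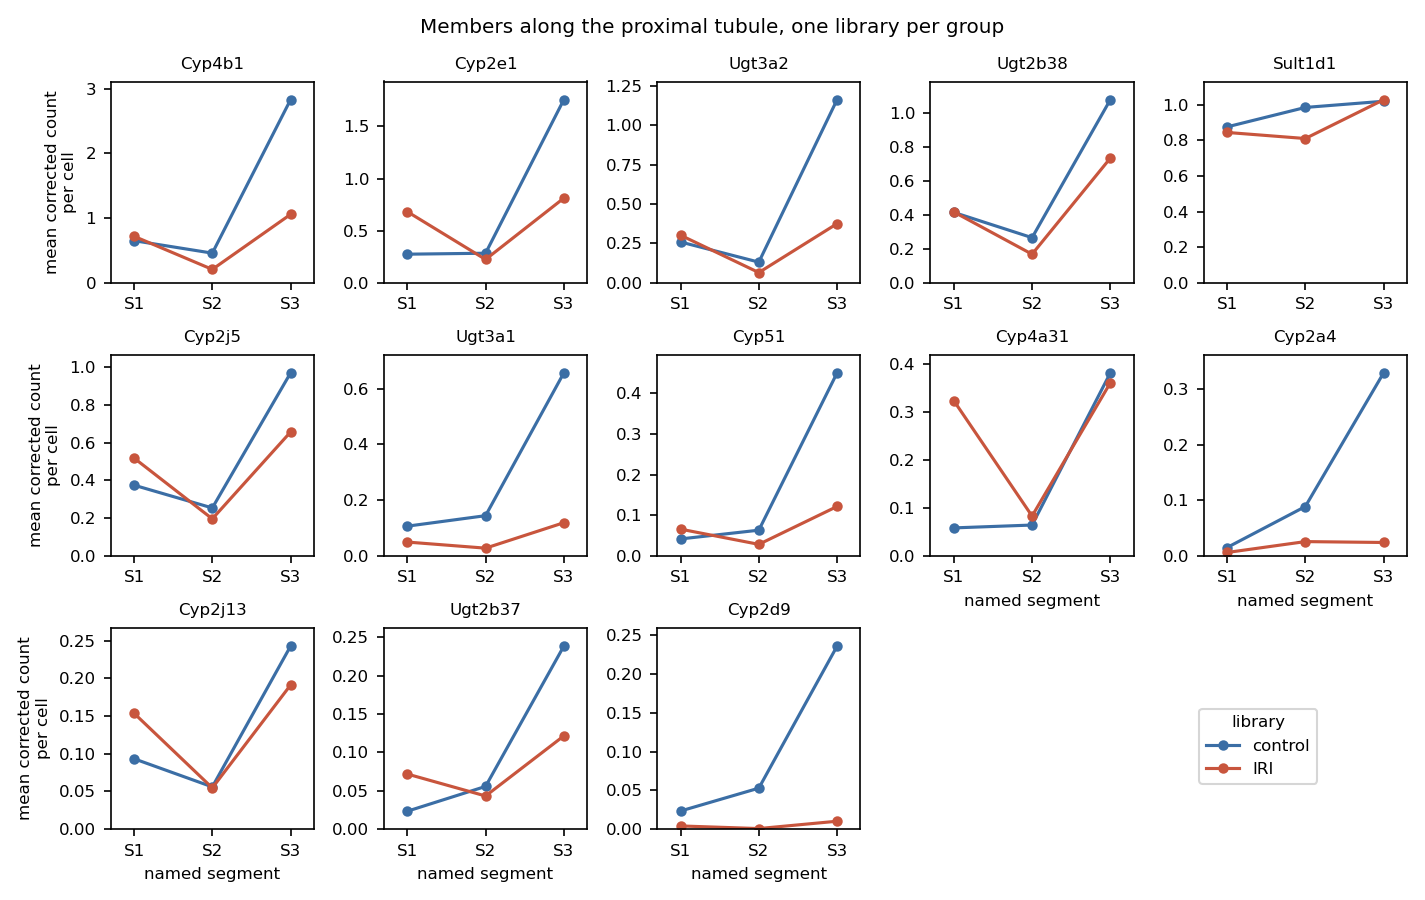
Mean depth-corrected count per cell (vertical axes from 0) of the 13 members with a mean of at least 0.1 in proximal tubule cells, by named segment, in the control and the IRI library, 1 library each. Control points are highest in S3 for all 13, and the IRI point in S3 lies below the control point except for Sult1d1, with Cyp4a31 close to it.

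With S1, S2 and S3 pooled (4827 control and 3261 IRI cells), the summed member level was 6.21 (control) and 4.11 (IRI). Of the 45 measured members 6 were at least 2-fold lower after IRI, against 0.762% of all measured genes, and 0 were at least 2-fold higher, against 0.41%. The median log2 ratio was -0.05 for members and -0.01 for all genes. The 6 lower members were Ugt3a1 (-1.69), Cyp2a4 (-1.54), Cyp2d9 (-1.51), Cyp7b1 (-1.35), Cyp51 (-1.01) and Cyp4b1 (-1.01). Cyp2d12 at -0.97, Ugt3a2 at -0.95 and Cyp2a5 at -0.94 lay just inside 2-fold. The count of 6 became 1 when clusters filled by both libraries were weighted equally, 0 with a pseudocount of 0.2 and 10 with a pseudocount of 0.01. These settings also change the share of all genes past 2-fold, which is not given beside them. The pooled libraries differ in their mix of segments, with S1 giving 600 of 4827 control and 989 of 3261 IRI cells, and in their mix of clusters. They also differ in depth, with median raw UMIs of 2738 (control) and 1819 (IRI).

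**Figure D2:**
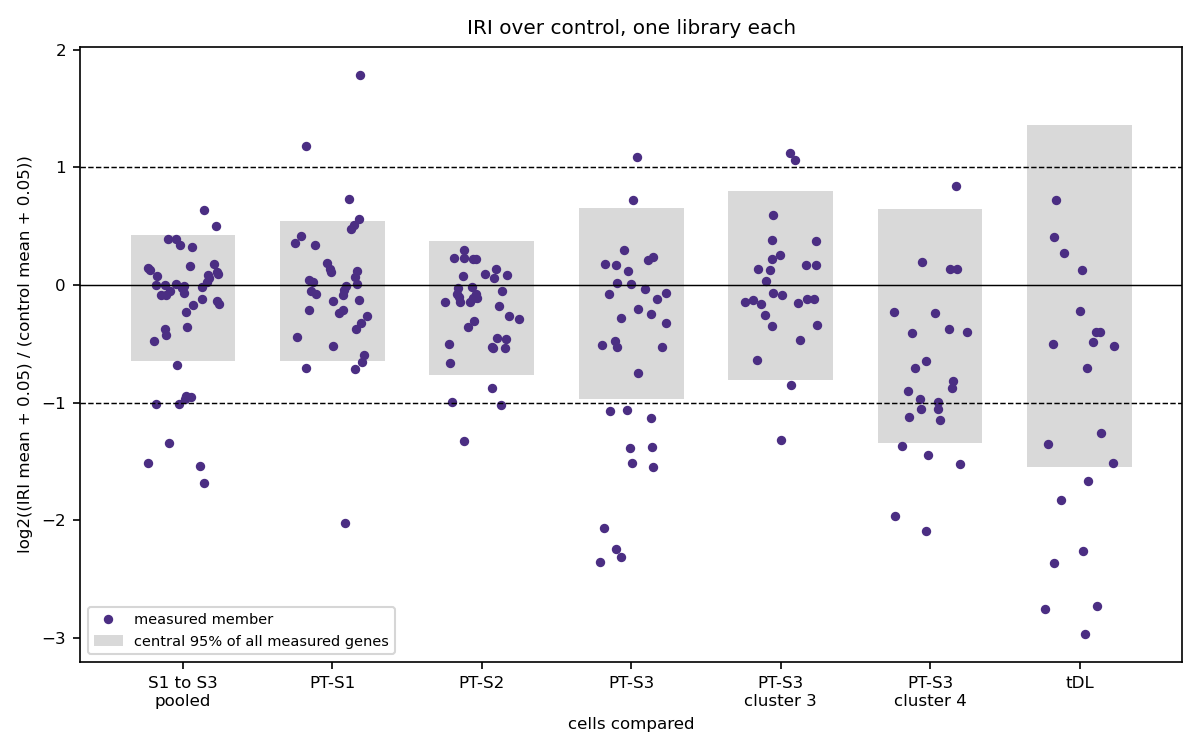
Log2 ratio of IRI over control (vertical axis, 0.05 added to each mean) of each measured member (points, spread sideways only for legibility) in 7 sets of cells, over the central 95% of all measured genes (grey bars). Dashed lines mark 2-fold, and most points below the lower line lie in PT-S3, in its cluster 4 and in tDL, while in PT-S3 cluster 3 only 1 member lies below it.

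The promoters of the 4 members lowest after IRI for which RefSeq holds one, and of the abundant Sult1d1, whose ratio was near 0, are shown to let their sequences be compared. RefSeq promoters (GRCm38.p6) were matched for 46 of the 59 members, with 52 start sites. Each is printed for the 250 bases before the start, in the direction of transcription, with motif matches in capitals. The stretches lie on chr15:9279579-9279828 (plus strand) for Ugt3a1, chr7:26306942-26307191 (plus) for Cyp2a4, chr15:82452127-82452376 (plus) for Cyp2d9, chr5:4104698-4104947 (minus) for Cyp51 and chr5:87569007-87569256 (minus) for Sult1d1.
Ugt3a1: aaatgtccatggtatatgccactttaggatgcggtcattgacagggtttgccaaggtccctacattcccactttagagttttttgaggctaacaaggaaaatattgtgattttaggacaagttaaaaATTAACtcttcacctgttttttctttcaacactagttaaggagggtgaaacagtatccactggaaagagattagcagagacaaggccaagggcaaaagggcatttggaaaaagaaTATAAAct
Cyp2a4: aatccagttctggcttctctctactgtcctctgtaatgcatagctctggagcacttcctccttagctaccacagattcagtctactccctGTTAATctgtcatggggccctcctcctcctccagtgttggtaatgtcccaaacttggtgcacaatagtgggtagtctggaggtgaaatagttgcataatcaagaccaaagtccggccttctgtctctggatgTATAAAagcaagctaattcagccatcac
Cyp2d9: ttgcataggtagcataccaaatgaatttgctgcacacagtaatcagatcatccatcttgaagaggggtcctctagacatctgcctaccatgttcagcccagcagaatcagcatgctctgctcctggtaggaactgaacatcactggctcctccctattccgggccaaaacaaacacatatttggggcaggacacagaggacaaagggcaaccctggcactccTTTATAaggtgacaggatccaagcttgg
Cyp51: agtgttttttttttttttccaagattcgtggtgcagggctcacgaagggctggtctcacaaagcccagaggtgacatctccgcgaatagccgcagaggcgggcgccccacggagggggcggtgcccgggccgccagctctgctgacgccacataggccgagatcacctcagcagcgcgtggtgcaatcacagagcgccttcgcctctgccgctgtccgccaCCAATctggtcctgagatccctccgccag
Sult1d1: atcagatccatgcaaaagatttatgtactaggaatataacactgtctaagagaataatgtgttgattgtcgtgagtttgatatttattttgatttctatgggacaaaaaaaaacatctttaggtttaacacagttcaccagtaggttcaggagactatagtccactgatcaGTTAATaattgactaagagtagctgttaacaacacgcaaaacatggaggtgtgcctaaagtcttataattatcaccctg
In these stretches ATTAAC in Ugt3a1 (from base -123) and GTTAAT in Cyp2a4 (-160) and Sult1d1 (-79) are matches to a short motif of the hepatocyte factor HNF1, searched as GTTAAT on both strands. Over the whole 300-base windows, 50 bases after the start included, that motif was in 11 of 52 member promoters (21.2%) and in 7.10% of all 32851 promoters. TATAAA, the TATA box, was in 21.2% and 13.6%, and CCAAT, the NF-Y box, which stands at base -29 of Cyp51, was in 48.1% and 37.4%. The D-box TTATGTAA, a site of the clock output factors, was in 0 member promoters and in 0.938% of all. CAAAGTCCA, a site of HNF4, was in 2 member promoters (3.85%) and in 0.475% of all. TTCNNNGAA, a site of STAT factors, was in 4 (7.69%) and in 8.30% of all. The sterol regulatory element was in 2 (3.85%) and in 0.0913% of all, with a match from base 10 after the start of Cyp2a4, beyond the stretch printed. The other match was in Cyp2a5, whose transcript is 98.2% identical to that of Cyp2a4, so the 2 are close copies. Cyp51 had no match to it. These matches describe letters and say nothing of binding.

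The xenobiotic P450s included 5 of the 11 members that were at least 2-fold lower in S3 (1442 control and 790 IRI cells), where 34 members were measured. The share of all genes so much lower in S3 was 2.34%, and 1 member was at least 2-fold higher, against 1.09%. Cyp2a4, a steroid hydroxylase, had a mean of 0.329 in control S3 cells and 0.0241 in IRI S3 cells (log2 -2.35). It was above 0 in 21.8% of control cells (exact Clopper-Pearson 95% interval 19.7 to 24.0%) and in 2.41% of IRI cells (1.45 to 3.73%), intervals that cover counting error only. Its level in T cells, B cells and neutrophils was 0.0568 (control) and 0 (IRI). Cyp2d9, a testosterone hydroxylase known for higher expression in male mice, had 0.236 and 0.0101 in S3 (log2 -2.25), with 18.9% and 0.759% of cells above 0. Cyp2d9 was at 0.0114 and 0.00368 in T cells, B cells and neutrophils, far under its control S3 level. Cyp2a5, which hydroxylates coumarin, had 0.157 and 0.0291 (-1.39), and Cyp2e1 had 1.76 and 0.811 (-1.07). Cyp2d12 had 0.0874 and 0.0127 in S3 (-1.13), beside 0.0795 in control T cells, B cells and neutrophils and 0 in those of IRI. The S3 difference of Cyp2d12 turned to 0.12 when that level was subtracted, and the control level rests on 88 cells.

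Among the P450s of sterol and fatty acid metabolism, Cyp51, the lanosterol demethylase of cholesterol synthesis, had 0.45 (control) and 0.122 (IRI) in S3 cells (log2 -1.54). Cyp7b1, which hydroxylates oxysterols, had 0.218 and 0.0038 (-2.32). Both were also lower in the T cells, B cells and neutrophils of the IRI library, Cyp51 with 0.0682 and 0.0147, and Cyp7b1 with 0.0341 and 0. Cyp4b1 had 2.83 and 1.05 in S3 (-1.38) and was above 0 in 76.6% (74.3 to 78.7%) and 46.2% (42.7 to 49.8%) of cells. In T cells Cyp4b1 was above 0 in 15.3% of control and 6.19% of IRI cells, at median depths of 2606 and 3345 UMIs against 4507.5 and 2338.5 in S3. The part of depth and of free RNA in these differences was not tested. The fatty acid hydroxylase Cyp4a12b went the other way, with 0.00693 (control) and 0.0709 (IRI) in S3 cells (log2 1.09).

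The sugar transferases split in the same segment. Ugt3a1, which can transfer N-acetylglucosamine, had 0.657 (control) and 0.119 (IRI) in S3 cells (log2 -2.06), and was above 0 in 43.7% and 9.62% of them. Its level in T cells, B cells and neutrophils was alike in both libraries, at 0.0114 and 0.011. Ugt3a2 had 1.16 and 0.375 (-1.51), and Ugt8a, the galactosyltransferase that makes galactosylceramide, had 0.182 and 0.0608 (-1.06). Ugt2b38 and Ugt2b37, of the large UGT2B family, were within 2-fold in S3, with 1.08 and 0.735 (-0.53) for Ugt2b38 and 0.239 and 0.122 (-0.75) for Ugt2b37. Over S1 to S3, 1 of 9 measured UGT members was at least 2-fold lower, and their summed level was 1.5 (control) and 0.791 (IRI).

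Sulfotransferases and epoxygenases stayed within 2-fold in the pooled comparison. Of the 5 measured Sult members 0 were past 2-fold in either direction, and their summed level was 1.05 (control) and 0.956 (IRI). Sult1d1 had 1.02 and 1.03 in S3 (log2 0.01), 0.986 and 0.811 in S2 (-0.27) and 0.877 and 0.845 in S1 (-0.05). Sult1d1 also had the highest level of any member in T cells, B cells and neutrophils, with 0.261 and 0.0993. Of the 7 measured members of the CYP2J and CYP2C subfamilies 0 were past 2-fold, with a summed level of 0.745 and 0.655. Cyp2j5 had 0.483 and 0.406 (log2 -0.23), and Cyp2j13 had 0.116 and 0.118 (0.01).

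S1 differed from S3 in which members stood out. In S1 (600 control and 989 IRI cells) 1 of 37 measured members was at least 2-fold lower, against 0.424% of all genes, and 2 were at least 2-fold higher, against 0.675%. Cyp4a31 had a mean of 0.0583 (control) and 0.324 (IRI) in S1 cells (log2 1.79) and was above 0 in 5.83% (4.10 to 8.02%) and 23.9% (21.2 to 26.6%) of cells. Cyp2e1 had 0.273 and 0.681 in S1 (log2 1.18), the opposite sign of its S3 ratio, and this contrast between segments was not tested. Neither gene's level in T cells, B cells and neutrophils moved much, with 0.0227 and 0.0257 for Cyp4a31 and 0.0455 and 0.0441 for Cyp2e1. Both genes were higher after IRI within each of the 2 S1 clusters that both libraries filled, though Cyp4a31 was within 2-fold in cluster 6. In cluster 5 (283 control and 501 IRI cells) Cyp4a31 had 0.0989 and 0.561, and Cyp2e1 had 0.47 and 0.996. In cluster 6 (276 and 479 cells) Cyp4a31 had 0.0254 and 0.0814 (log2 0.80), and Cyp2e1 had 0.0906 and 0.349. The lower member was Cyp2d12, with 0.218 (control) and 0.0162 (IRI) in S1 cells (log2 -2.02), and 0.428 and 0.0299 within cluster 5.

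In S2 (2785 control and 1482 IRI cells) 2 of 37 measured members were at least 2-fold lower, against 0.996% of all genes, and 0 were at least 2-fold higher, against 0.234%. Ugt3a1 had 0.144 and 0.0277 (log2 -1.32) and Cyp2d9 had 0.0528 and 0.00067 (-1.02), with Cyp4b1 next at 0.456 and 0.204 (-0.99). S2 cells were shallow, with median raw depths of 1495 and 912 UMIs. Control S2 cells lay mainly in clusters 1 (1283) and 2 (898), and IRI S2 cells in clusters 0 (1092) and 12 (292). In cluster 0, with 391 control cells, 0 of 27 measured members were at least 2-fold lower, beside 0.343% of all genes. In cluster 12, with 66 control cells, 0 of 16 were lower (1.47%) and 2 were at least 2-fold higher (3.43%). These were Cyp4a31 (0.0152 and 0.158, log2 1.67) and Cyp2c44 (0.0455 and 0.175, 1.23), the latter named after its values were seen. The trimmed mean of log ratios over measured genes was -0.20 in S1, -0.22 in S2 and -0.19 in S3. Scaling by it moves each ratio in those segments up by as much as that size. With that scaling 1, 2 and 9 members were at least 2-fold lower in S1, S2 and S3, and the share of all genes past 2-fold changes with it too.

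The S3 cells of the libraries fell into different clusters, and the members differed strongly among them. Control S3 cells lay mainly in cluster 4 (742 cells), cluster 8 (455) and cluster 21 (118), with 127 in cluster 3. IRI S3 cells lay mainly in cluster 3 (727), with 58 in cluster 4, 4 in cluster 8 and 1 in cluster 21. Of the 16 named members with a mean of at least 0.1 in S3, 7 peaked in cluster 8 and 9 in cluster 21 of the control. Cyp4b1 (4.21), Cyp2e1 (2.81), Ugt2b38 (1.23), Cyp2j13 (0.358), Ugt2b37 (0.308), Ugt8a (0.251) and Cyp2a5 (0.211) peaked in cluster 8. In cluster 21 Cyp2e1 was at 0.0169, Ugt2b38 at 0.0508 and Ugt2b37 at 0, and Cyp4b1 was at 0.347. The same cluster held the peaks of Ugt3a2 (2.92), Cyp7b1 (2.31), Cyp51 (2.19), Cyp2j5 (1.98), Ugt3a1 (1.82), Sult1d1 (1.25), Cyp4a31 (1.20), Cyp2a4 (0.907) and Cyp2d9 (0.432). Cyp7b1 was nearly confined to it among S3 clusters, with 0.0431 in cluster 4, 0.0198 in cluster 8 and 0.00787 in cluster 3. Among proximal tubule markers, cluster 21 had more of the S3 transporter Slc7a13 (4.66), Slc22a7 (1.92) and Aqp1 (2.67) than cluster 8 (1.81, 0.266 and 0.956). It had less Slc34a1 (0.288), Miox (0.314), Slc22a6 (0.0254) and Slc13a3 (0.0593) than cluster 8, where they were at 7.03, 3.90, 1.51 and 1.06. These clusters were made from all genes, so their contrasts are descriptions. Clusters 21 and 8 were also the deepest of the control S3 clusters, with median raw UMIs of 10278 and 8192. Control cells had 2662 in cluster 3 and 2373.5 in cluster 4, and the part of depth in the peaks was not tested.

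**Figure D3:**
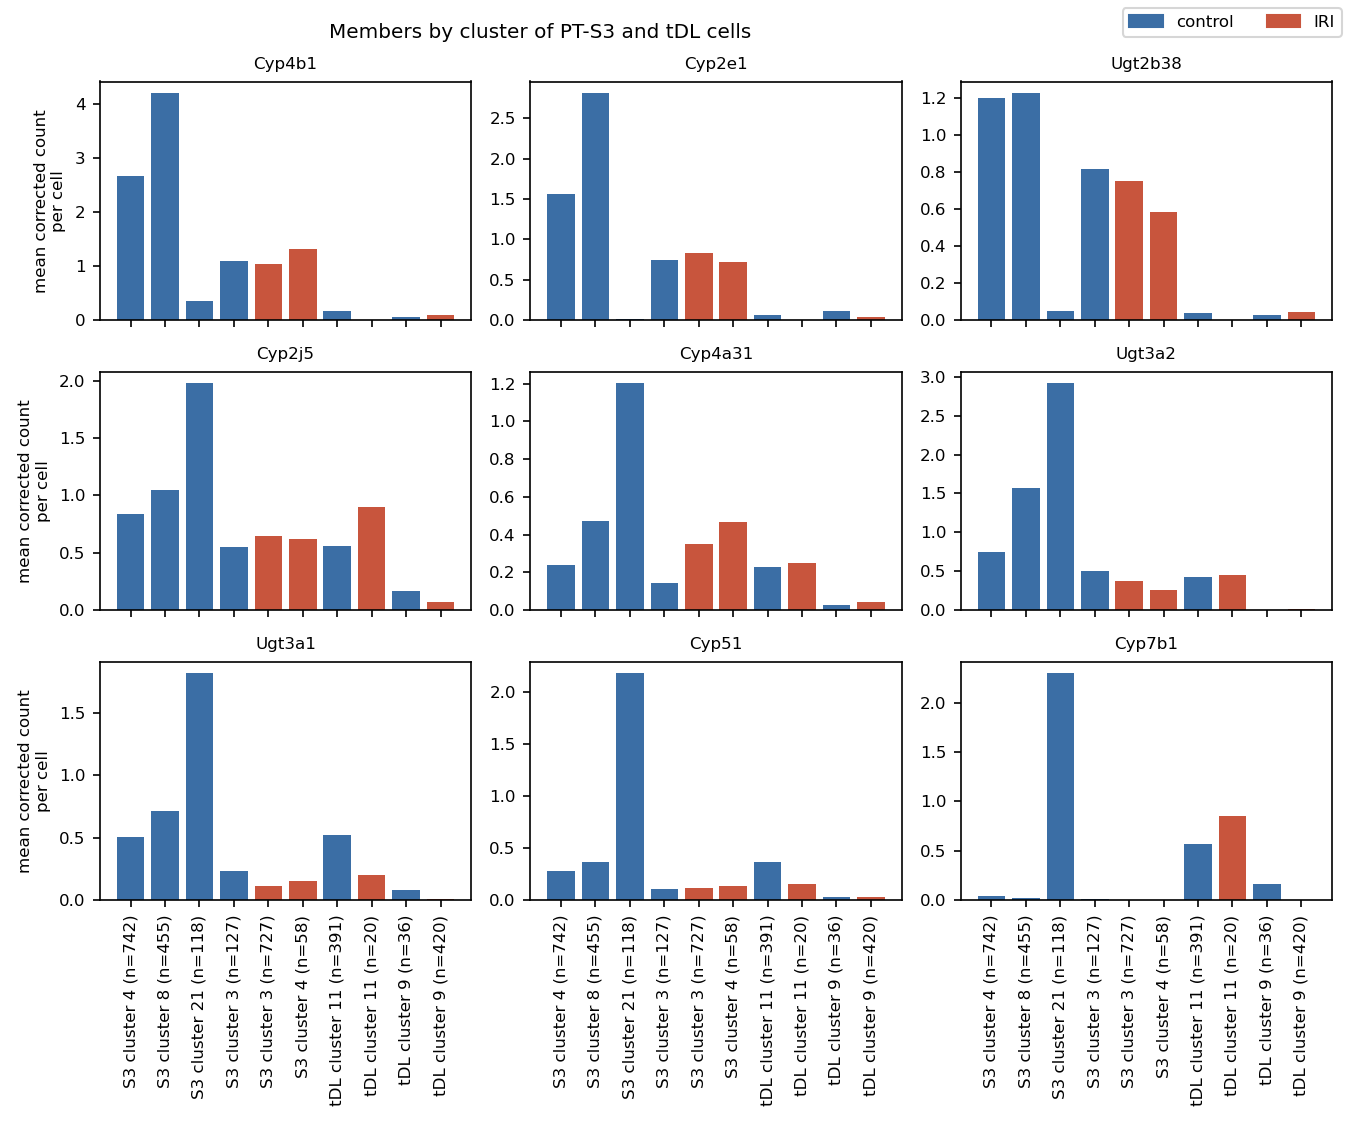
Mean depth-corrected count per cell (vertical axes from 0) of 9 members in each cluster of PT-S3 and tDL cells with at least 20 cells of a library, with the number of cells, in the control and the IRI library. Cyp4b1, Cyp2e1 and Ugt2b38 are high in control clusters 8 and 4 and low in cluster 21, whereas Ugt3a2, Ugt3a1, Cyp51 and Cyp7b1 are highest in cluster 21, and cluster 3 has bars of both libraries.

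Within cluster 3, which both libraries filled, fewer members were lower than in S3 as a whole. Of 27 measured members 1 was at least 2-fold lower (0.898% of all genes) and 2 were at least 2-fold higher (1.31%), with a median log2 ratio of -0.08 beside -0.03 for all genes. Cyp4b1 had 1.09 (127 control cells) and 1.03 (727 IRI cells), Cyp2e1 0.748 and 0.824, and Cyp51 0.11 and 0.114. Ugt3a1 was lower there too, within 2-fold, with 0.236 and 0.109 (log2 -0.85). The members past 2-fold in cluster 3 were Cyp2d12 (0.102 and 0.011, log2 -1.32), Cyp4a31 (0.142 and 0.349, 1.06) and Cyp4a12b (0.00787 and 0.0757, 1.12). Within cluster 4 the difference was there, but with only 58 IRI cells at a median of 1278.5 UMIs against 2373.5 in 742 control cells. In cluster 4, 9 of 25 members were at least 2-fold lower, beside 7.49% of all genes. Cyp4b1 there had 2.67 and 1.31 (log2 -0.997), Cyp2e1 1.56 and 0.724 (-1.05) and Ugt3a1 0.508 and 0.155 (-1.44). Without cluster 21, 10 members were at least 2-fold lower in S3 and Cyp7b1 was at -0.71, while 4 were lower in the pooled segments, where Cyp7b1 was at -0.60 and Cyp51 at -0.65. A lower level within a cell and fewer cells of the clusters with a high level cannot be told apart for most members, since cluster and library largely coincide. Markers of tubule injury were 0 in control S3 cells or nearly so, and Havcr1 was at 0.199 and Lcn2 at 0.081 in IRI S3 cells. The part of these injured cells was not tested.

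Cells named tDL, for the thin descending limb, gave a similar contrast for another set of clusters. In tDL (427 control and 440 IRI cells) 10 of 21 measured members were at least 2-fold lower, beside 6.39% of all genes, and 0 were higher, beside 4.96%. The summed member level was 4.64 (control) and 1.07 (IRI). Cyp7b1 had 0.539 and 0.0386 (log2 -2.73), Ugt3a1 0.482 and 0.0182 (-2.97), Cyp2a4 0.365 and 0.0114 (-2.76) and Cyp2j5 0.522 and 0.111 (-1.83). Markers of other cells and of injury moved with this difference. Thick ascending limb markers summed to 0.213 (control) and 3.08 (IRI) in tDL, with Umod at 0.129 and 2.76. Injured tubule markers summed to 0 and 3.12, with Lcn2 at 0 and 2.37 and Havcr1 at 0 and 0.58. Neutrophil markers summed to 0 and 1.42, with S100a8 at 0 and 0.88 and Csf3r at 0 in both, and the 12 proximal tubule markers summed to 4.50 and 1.70. The part of these in the members' difference was not tested. Control tDL cells lay in cluster 11 (391 of 427) and IRI cells in cluster 9 (420 of 440). Cluster 11 went against its label. In its control cells the thin limb markers Cldn4 and Bst1 were at 0 and Akr1b3 was at 0.046, whereas Slc7a13 was at 0.757 and Slc22a7 at 0.427. In cluster 9 Akr1b3 was at 1.72 (36 control cells) and 0.395 (420 IRI cells), with Slc7a13 at 0 and 0.0095. Like S3 cluster 21, control cells of cluster 11 had more Cyp7b1 (0.573) than the other S3 clusters and less Cyp2e1 (0.0639) and Ugt2b38 (0.0358). Ugt3a1 (0.519) was near its level in S3 cluster 4, and Ugt3a2 (0.43) was below every control S3 cluster. In the 20 IRI cells of cluster 11 Cyp7b1 was at 0.85 and Cyp2j5 at 0.90, not below the control's 0.573 and 0.555. So for Cyp7b1 the tDL difference lay between clusters 11 and 9 and was not seen in these 20 cells. Ugt3a1 (0.519 and 0.2, log2 -1.19) and Cyp51 (0.371 and 0.15, -1.07) had lower means within cluster 11 as well. Both ratios lay inside the central range of all measured genes in cluster 11, from -1.87 to 1.275, with a median of -0.40. The 20 IRI cells were also shallower, with a median of 844 raw UMIs against 1495 in the control cells. These 20 cells therefore do not set Ugt3a1 and Cyp51 apart from other genes, and the part of depth was not tested.

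Cells named Injured PT, 135 cells of the IRI library only, had a summed member level of 4.63, close to that of S1 in the same library. Havcr1, the kidney injury molecule, was at 1.33 in them, Vcam1 at 0.533 and Sox9 at 0.185. The other listed injury markers were low in them. Lcn2 was at 0.0519, below IRI S3 (0.081) and IRI tDL cells (2.37), and Krt20 was at 0.0444, near IRI tDL cells (0.0477). Ugt2b38 was the highest member at 0.785, and was above 0 in 46.7% of these cells. Cyp2j5 followed with 0.556, Cyp2e1 with 0.511, Cyp4b1 with 0.444 and Sult1d1 with 0.43. Against IRI S3 cells, Ugt2b38 was at about the same level (0.735) while Cyp4b1 (1.05) and Sult1d1 (1.03) were lower in the injured cells. Against IRI S1 cells, Ugt2b38 (0.418) was higher in the injured cells, and Cyp4b1 (0.716) and Sult1d1 (0.845) were again lower. Median raw UMIs were 8267 in Injured PT, 4716 in IRI S1 and 2338.5 in IRI S3, and the part of depth was not tested. Cyp2a4 and Cyp7b1 were at 0.0148 and 0.00741 in Injured PT cells. Without control cells of this type no ratio can be given.

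The vitamin D enzymes were scarce in the proximal tubule. Among its named segments Cyp24a1, Cyp27b1 and Cyp27a1 were highest in S1 in both libraries. Cyp24a1, which degrades active vitamin D, had a mean of 0.0733 (control) and 0.121 (IRI) in S1 cells (log2 0.47), and 0.0989 and 0.146 within S1 cluster 5. Cyp27b1, which makes active vitamin D, had 0.0617 and 0.0708 in S1 (0.11). In pooled proximal tubule cells the summed level of the 4 vitamin D members was 0.0605 (control) and 0.102 (IRI), and none of the 4 was past 2-fold. S1 made up 600 of 4827 control and 989 of 3261 IRI proximal tubule cells. Cyp27a1, the sterol hydroxylase of mitochondria, had 0.0767 and 0.0384 in S1 (-0.52). Of the retinoic acid P450s the table held Cyp26a1, with 1 count in IRI proximal tubule cells and 0 in the control.

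Some members were highest outside the proximal tubule, in vessels, macrophages, myofibroblasts or intercalated cells. Sult1a1, a phenol sulfotransferase, was highest in vessels, with 0.369 in 222 control and 0.125 in 96 IRI cells (log2 -1.26). It was above 0 in 23.9% (18.4 to 30.04%) and 9.38% (4.38 to 17.1%) of vessel cells and was at 0 in S1 of both libraries. Vessels had 5 of 11 measured members at least 2-fold lower, beside 4.37% of all genes. The other 4 were the tubule genes Cyp2e1 (-1.39), Cyp2j5 (-1.35), Sult1d1 (-1.17) and Cyp4b1 (-1.04), whose control vessel levels ran from 0.131 to 0.351; these genes were also above 0 in T cells, B cells and neutrophils, and the part of free RNA was not tested.

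Myeloid cells carried Cyp4f18, which inactivates leukotriene B4. It had 0.283 in 106 control and 0.316 in 19 IRI Cx3cr1+ macrophages, 0.25 in 32 control and 0.134 in 217 IRI Ccr2+ macrophages (log2 -0.71), and 0.198 in 106 IRI neutrophils. In S3 cells Cyp4f18 was at 0.00069 and 0.0038, so its myeloid signal stood far above that of tubule cells. Cyp27a1 was highest in Cx3cr1+ macrophages as well, with 0.283 and 0.158. The share of Cx3cr1+ macrophages with Cyp27a1 above 0 was 27.4% (19.1 to 36.9%) in the control and 15.8% (3.38 to 39.6%) in the IRI library, intervals that overlap.

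Stromal and intercalated cells gave the remaining cases, on few cells. Cyp1b1, which oxidises oestrogens and polycyclic hydrocarbons, had 0.0645 in 31 control and 0.343 in 35 IRI myofibroblasts (log2 1.78). This was 2 summed counts against 12, and the shares of cells above 0, 6.45% (0.791 to 21.4%) and 20% (8.44 to 36.9%), have overlapping intervals. Cyp1b1 was at 0 in T cells, B cells and neutrophils of both libraries. Sult2a3, of the hydroxysteroid sulfotransferases, was nearly confined to intercalated cells of the collecting duct (CD-IC), with 0.246 in 57 control and 0.0727 in 55 IRI cells (-1.27), or 14 summed counts against 4. Cyp2s1 had 0.228 and 0.182 in the same cells (-0.26). Sult2a3 and Cyp2s1 were at 0.00139 or less in control S3 cells.

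The other named members gave smaller differences. Cyp2d26 was highest in S1, with 0.24 (control) and 0.142 (IRI), and in S3 it had 0.0354 and 0.0911 (log2 -0.60 in S1 and 0.73 in S3), both within 2-fold. Sult1c2 had 0.105 and 0.1 in S1 (-0.05). Cyp2d22 was highest in vessels, with 0.153 and 0.0625 (-0.85), where Cyp20a1 had 0.117 and 0.125 (0.07). Cyp2u1 had 0.0401 and 0.0982 in the thick ascending limb (TAL, 0.72). Among types of at least 20 cells, Cyp20a1 was highest in control myofibroblasts and Cyp2u1 in IRI myofibroblasts, both on few cells. Of the 28 members not named, 17 were measured in proximal tubule cells, with means of at most 0.0748 and log2 ratios from -0.36 to 0.40, and 9 members did not reach a sum of 10 in any set of cells, all cells included.

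**Figure D4:**
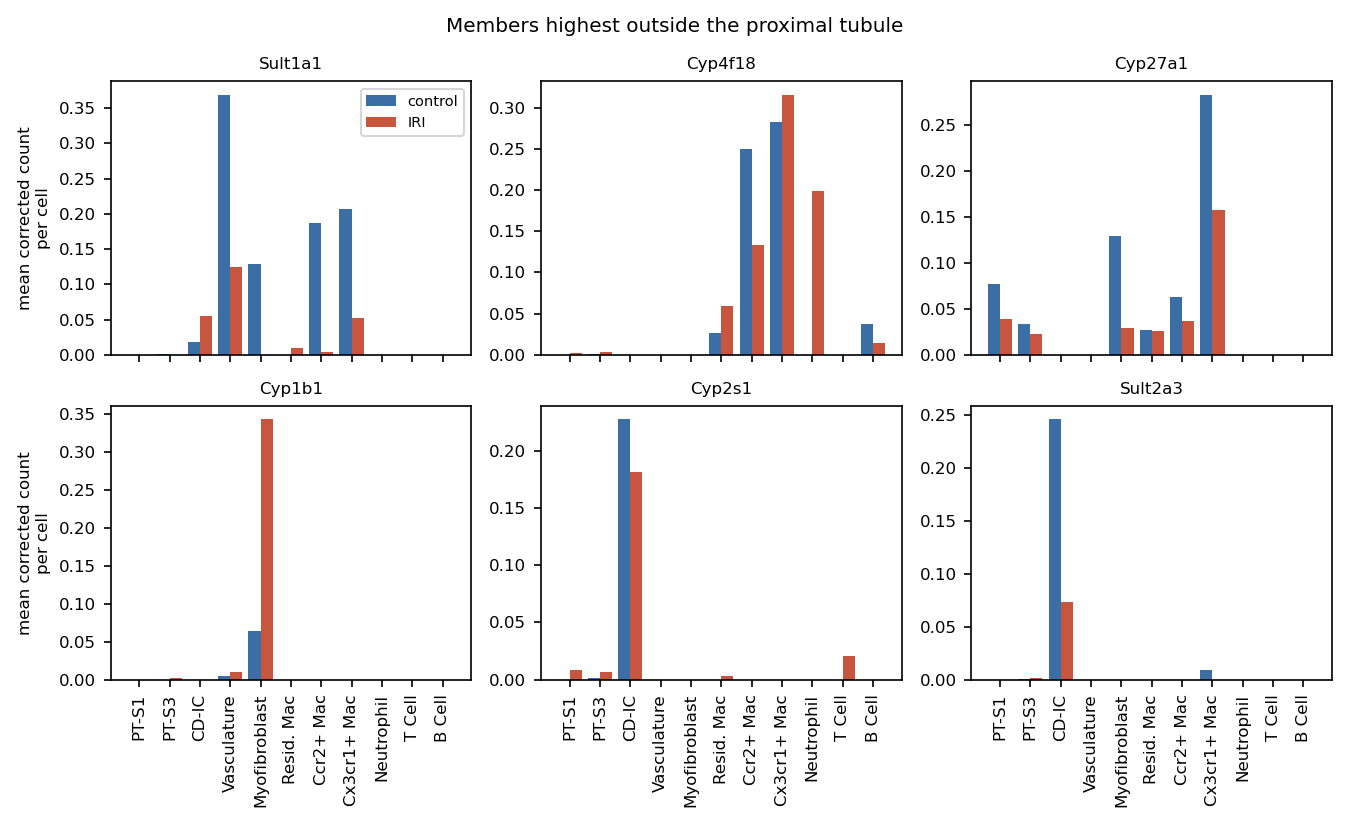
Mean depth-corrected count per cell (vertical axes from 0) of 6 members that are highest outside the proximal tubule, by cell type and library (types with at least 19 cells in that library). Sult1a1 is highest in vessels, Cyp4f18 and Cyp27a1 in macrophages, Cyp1b1 in IRI myofibroblasts at 0.343, and Cyp2s1 and Sult2a3 in intercalated cells.

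Partner genes of the same pathways were taken from fixed lists and compared in the pooled proximal tubule cells. Of all measured genes there, 0.762% were at least 2-fold lower and 0.41% at least 2-fold higher, with a median log2 ratio of -0.01. Of 11 electron donors of P450 enzymes 1 was at least 2-fold lower and 0 higher, with a median log2 ratio of -0.10. Cyb5a, the cytochrome b5 that passes electrons to P450s of the endoplasmic reticulum, had 6.31 (control) and 2.98 (IRI) (-1.07). Its level in T cells, B cells and neutrophils was 0.932 and 0.548. Fdx1, the ferredoxin of mitochondrial P450s, had 0.659 and 0.325 (-0.92), and Por, the reductase that all P450s of the endoplasmic reticulum need, had 0.147 and 0.092 (-0.47). Of 13 makers and carriers of the sulfate and glucuronate donors 0 were lower and 1 was at least 2-fold higher, the sulfate transporter Slc13a1 with 0.14 and 0.496 (1.52). Papss2, which makes the sulfate donor, had 0.342 and 0.17 (-0.83).

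Of 19 measured other phase I enzymes 1 was at least 2-fold lower, the flavin monooxygenase Fmo5 (0.143 and 0.0399, log2 -1.10). Akr1a1, an aldehyde reductase, had 4.55 and 3.67 (-0.31). Of 11 measured other phase II enzymes 3 were at least 2-fold lower, beside 0.762% of all genes, and the median was -0.47, beside -0.01. Inmt, an amine methyltransferase, had 2.07 (control) and 0.122 (IRI) (-3.63), Acsm3 had 0.504 and 0.133 (-1.60), and Nat8 had 0.461 and 0.168 (-1.23). Of 23 measured regulators 2 were at least 2-fold lower, both clock output factors, Dbp with 0.613 and 0.131 (-1.87) and Tef with 0.32 and 0.135 (-1.001). Hnf4a, a main regulator of these enzymes, had 0.406 and 0.4 (-0.02), and Nr1h4, the bile acid receptor, had 0.2 and 0.109 (-0.65).

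Several members have close copies, whose reads a counting program can assign to either gene or drop. In GENCODE M21 transcripts 4 pairs of members were over 95% identical, Ugt1a6a and Ugt1a7c (100% over 2297 bases), Cyp2a4 and Cyp2a5 (98.2% over 1739), Cyp4a12a and Cyp4a12b (98.2% over 2395) and Ugt2b38 and Ugt2b5 (95.5% over 1861). Ugt3a1 and Ugt3a2 were 91.6% identical and Cyp2d9 and Cyp2d12 91.5%. The split of signal within these pairs is uncertain. Both members of the pairs Cyp2a4 and Cyp2a5, Ugt3a1 and Ugt3a2, and Cyp2d9 and Cyp2d12 were at least 2-fold lower in IRI S3 cells, so each pair's summed level was lower as well.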

How the data were processed

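Single-cell libraries of 2 kidneys were used, 1 per group. Per the submitters' processing notes, Cell Ranger 3.0.0, Seurat 3.2 and mm9 were used. The deposited table holds a score, whole-number depth-corrected counts per gene and cell and not raw counts, so that differences in depth are already reduced in them by the authors. The correction was read from the values, whose totals per cell run from 1468 to 3212. Cell types, clusters and raw UMIs came from the deposited annotation, which was written without separators. Corrected totals matched in 11759 of 11759 cells, and 3615 cells allowed several readings of raw UMIs and genes. Doublets were not called.

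Mean values per type and library were compared with Python 3.11.15, numpy 2.4.6 and scipy 1.17.1 as log2 ratios with a pseudocount of 0.05. Named members have a mean of at least 0.1 in proximal tubule cells or in the type of at least 20 cells where they are highest, and Cyp27b1 was named whatever its value. Proximal tubule cells pool the 3 named segments. Exact Clopper-Pearson 95% intervals were computed for shares of cells. In simulated proximal tubule data on 11944 genes, 100% of 200 changed genes (true log2 1.5) kept their direction, their median was 1.23, and 81% passed 2-fold. The changed genes were drawn from those with a mean of at least 0.1, which most measured members do not reach. The simulation held counting error only. Alternatives were other pseudocounts, scalings, depth limits, free RNA subtraction and subsets of clusters. The members and lists were chosen with earlier results of these data known, and the subsets of clusters after seeing the data. The files' build differs from that of the reference, so coordinates are given for RefSeq promoters only. Some genes of the marker and partner lists are not reported here.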

Additional observations from a re-analysis of the deposited data

Results flagged for a closer look

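Opposite signs past 2-fold in different cell types singled out 2 members, with 1 library per group and the difference not tested. Cyp4a31 had a log2 ratio of IRI over control of 1.79 in PT-S1 and -1.35 in tDL. Cyp2e1 had 1.18 in PT-S1, against -1.07 in PT-S3, -1.18 in resident macrophages (Resid. Mac), -1.04 in the thick ascending limb (TAL) and -1.39 in vessels. The control and IRI cells of tDL and PT-S3 lay in different clusters, and in PT-S3 cluster 3 alone Cyp2e1 was at 0.13. In resident macrophages Cyp2e1 had a mean of 0.122 (control) and 0.0261 (IRI), in a range that free RNA may reach, and its part was not tested.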

How the results depend on the processing

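No paired analysis was possible because the labels give 1 library per group and no replicate numbers. The counts of members past 2-fold depended most on the pseudocount and on which clusters were compared. The alternatives also change the share of all genes past the limit, so the counts below do not by themselves set members apart from other genes. In pooled proximal tubule cells, the 6 lower members became 10 with a pseudocount of 0.01, 0 with 0.2, 1 with shared clusters weighted equally and 10 with a limit of 1.5-fold, and the 0 higher became 2 with 0.01 and 1 with shared clusters or 1.5-fold. In PT-S1 the 1 lower member became 4 with 0.01 and 0 with 0.2, and the 2 higher became 4 and 1. In PT-S2 the 2 lower became 7 with 0.01, 0 with 0.2, and 1 each with means of cell proportions and with free RNA subtracted. In PT-S3 the 11 lower became 7 with 0.2 and 1 in cluster 3 only, and the 1 higher became 2 with 0.01 and in cluster 3, and 0 with 0.2 and in cluster 4. Of 1031 values of single members under an alternative, 902 were within 1.5-fold of the reported ratio and 126 moved further. A change of sign was counted only for reported ratios of at least 2-fold, and 3 such ratios reversed. Those were, in PT-S3, Cyp51 (0.035) and Cyp2e1 (0.13) in cluster 3 only, and Cyp2d12 (0.12) with free RNA subtracted. The cause was not tested. The pseudocount draws scarce genes toward 0 by construction, and means under about 0.05 carry little weight.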
